A study of Mus musculus with 6 samples.

Results

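Members of the Kruppel-like factor (KLF) family were followed in cultured mouse retinal ganglion cells (RGCs), the neurons that send their axons through the optic nerve. The 10 genes Klf2, Klf3, Klf4, Klf5, Klf6, Klf7, Klf9, Klf10, Klf12 and Klf13 were taken by mouse gene symbol, out of 43346 Ensembl mouse genes and 17 genes with a Klf symbol in the tables. All 10 passed the filter on low counts. KLFs are DNA-binding proteins with zinc fingers at their C terminus that bind GC-rich and CACCC sequences in promoters, and members differ in the cofactors their N termini recruit. In RGCs and other central neurons, Klf6 and Klf7 are known as members that promote axon growth, and Klf4 and Klf9 as members that suppress it.

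RNA-seq was done on immunopanned RGCs, selected with an antibody to CD90.1, from C57BL/6 mice of both sexes. The sequencing protocol names embryonic day 18 cells, whereas the culture protocol names postnatal day 2 pups and the names of the deposited tables P0, so the age of the cells is not settled by the labels. All 3 groups were grown on laminin in medium with forskolin, BDNF and CNTF, at 250000 cells per well, and received AAV2 capsid virus 4 h after plating at about 100000 vector genomes per cell, with medium changes 5.5 and 24 h later. The control virus carried EGFP alone. The Sox11 virus carried the transcription factor Sox11 with EGFP, and the Sox11K91A virus carried Sox11 in which the lysine used for SUMOylation was replaced by alanine. RNA was taken 72 h after plating, with 2 libraries per group, and the promoter of the vectors is not given in the sources used here. Nothing in the labels says that the libraries of a group came from separate cultures, so the p-values measure the spread between these libraries, which may be technical. Each library was bulk RNA, in which fewer cells of a type and less RNA per cell cannot be told apart. Both comparisons against control share the same control libraries.

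The libraries held between 27521982 and 37061718 counts. Sox11 itself was at 234 and 332 CPM, counts scaled by library size, in control, 9180 and 14600 with Sox11, and 12000 and 7030 with Sox11K91A. The 12 RGC markers were present in every library. Their sum was 12100 and 12000 CPM in control, 8890 and 6600 with Sox11 and 7630 and 9200 with Sox11K91A. Most of the sum in control came from Nefl, at 7090 and 6340 CPM. Nefl was at 4100 and 2190 CPM with Sox11 and 3100 and 4330 CPM with Sox11K91A. Rbpms, Isl1, Pou4f1, Pou4f2 and Pou4f3 were not called with either virus, and the markers that were called are given below. Control replicate 2 and Sox11 replicate 2 stood apart in the X-inactivation RNA Xist, at 95.9 and 254 CPM, against 400 to 526 CPM in the other 4 libraries. The Y-linked genes Eif2s3y, at 25.1 and 33.9 CPM, and Ddx3y, at 30.0 and 29.9 CPM, were higher in these libraries. The others were at 7.66 to 12.6 CPM and 16.2 to 17.7 CPM. The cause was not tested. Both libraries with low Xist, neither of them from the Sox11K91A group, were also fitted as a block, an alternative chosen after seeing the data. Each count of KLF genes is therefore also given without these libraries.

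The sequence just upstream of a RefSeq start of the genes that promote or suppress growth is shown for the KLF motifs it holds. RefSeq promoter windows on GRCm38.p6 were found for 8 of the 10 genes, and Klf5 and Klf10 are only named. The stretches below are the part of the 250 bases before the RefSeq start that lies outside GENCODE M21 exons, 5′ to 3′ on the strand of the gene. They lie at chr4:55532476-55532725 on the minus strand for Klf4, chr19:23140976-23141225 on the plus strand for Klf9, chr13:5861239-5861481 on the plus strand for Klf6 and chr1:64121492-64121639 on the minus strand for Klf7. The Klf7 start in RefSeq lies inside the locus that GENCODE gives for the gene, so that its stretch is upstream of that start only. Capitals mark GGGCGG, the GC box, and CACCC, each on either strand.
Klf4: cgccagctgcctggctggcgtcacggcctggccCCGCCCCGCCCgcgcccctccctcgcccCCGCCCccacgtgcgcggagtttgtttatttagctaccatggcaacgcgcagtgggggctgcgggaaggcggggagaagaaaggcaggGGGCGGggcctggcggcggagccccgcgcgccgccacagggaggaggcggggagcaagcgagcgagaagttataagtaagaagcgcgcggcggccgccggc
Klf9: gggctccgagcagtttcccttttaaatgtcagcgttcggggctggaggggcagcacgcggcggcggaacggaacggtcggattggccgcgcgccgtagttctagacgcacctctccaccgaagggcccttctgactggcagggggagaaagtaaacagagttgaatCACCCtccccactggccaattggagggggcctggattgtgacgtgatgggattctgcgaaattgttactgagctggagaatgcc
Klf6: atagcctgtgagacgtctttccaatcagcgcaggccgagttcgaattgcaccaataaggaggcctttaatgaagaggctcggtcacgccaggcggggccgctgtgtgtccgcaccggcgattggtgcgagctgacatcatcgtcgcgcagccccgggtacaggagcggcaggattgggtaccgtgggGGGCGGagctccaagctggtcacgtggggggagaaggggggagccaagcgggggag
Klf7: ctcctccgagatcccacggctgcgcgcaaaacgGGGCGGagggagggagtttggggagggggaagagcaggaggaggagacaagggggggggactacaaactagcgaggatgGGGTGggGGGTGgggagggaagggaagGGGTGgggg

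In the full window of 250 bases, Klf4 held 4 GC boxes and no CACCC, and Klf9 held no GC box and 1 CACCC. Klf6 held 1 GC box and no CACCC, and Klf7 held 1 GC box and 3 CACCC. Of all 32851 windows of this length, 32.7% held GGGCGG and 52.0% held CACCC. The 2 cores of SOX sites searched, ACAAAG and ACAATG, were found on neither strand in any of the 8 KLF windows, and they occurred in 16.5% and 10.7% of all windows. The 8 windows were between 48.0% and 78.4% G and C, and the median of all windows was 52.4%. A match describes the letters of the window only.

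Per length, in TPM, which scales counts by gene length and library total, the 10 genes spanned a wide range in control cells. Klf9 was first at a mean of 70.0 TPM, followed by Klf7 at 64.0 and Klf6 at 62.8 TPM, and these neighbours overlapped in their libraries. Klf13 followed at 31.7 TPM, apart from the genes above and below it. Klf5, Klf2, Klf12, Klf10, Klf3 and Klf4 came next, from 11.6 down to 3.62 TPM, and each overlapped the next. With Sox11, Klf7 was first at 95.7 TPM and Klf6 second at 54.3 TPM, with no overlap between them, whereas Klf9 was at 35.0 TPM and overlapped Klf13 at 35.2 TPM. With Sox11K91A, the order began with Klf7 at 88.7, Klf6 at 53.6, Klf9 at 39.4 and Klf13 at 28.5 TPM, none of which overlapped its neighbour. Klf4 was last in all 3 groups.

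The first question was how the KLF genes changed with Sox11. Genes were called at a false discovery rate (FDR) under 0.05 and a fold change above 1.2 in limma-voom. Of the 10 genes, Klf7 rose and Klf2, Klf4, Klf5 and Klf10 fell, while Klf3, Klf6, Klf9, Klf12 and Klf13 were not called. Of all 15747 genes tested, 9.96% were called higher and 10.2% lower. Without any overlap between the libraries of both groups, 1 of the 10 genes was higher and 7 were lower, against 30.9% and 30.6% of all genes. The median log2 fold change was -0.70 over the 10 genes and 0.01 over all genes, and the median absolute log2 fold change was 1.27 and 0.46, respectively. The 5 calls became 4 without control replicate 1, 2 without control replicate 2, 4 without Sox11 replicate 1 and 0 without Sox11 replicate 2. Without Sox11 replicate 2, no gene at all was called of those tested, and this also holds for every other gene group compared with Sox11.

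**Figure D1:**
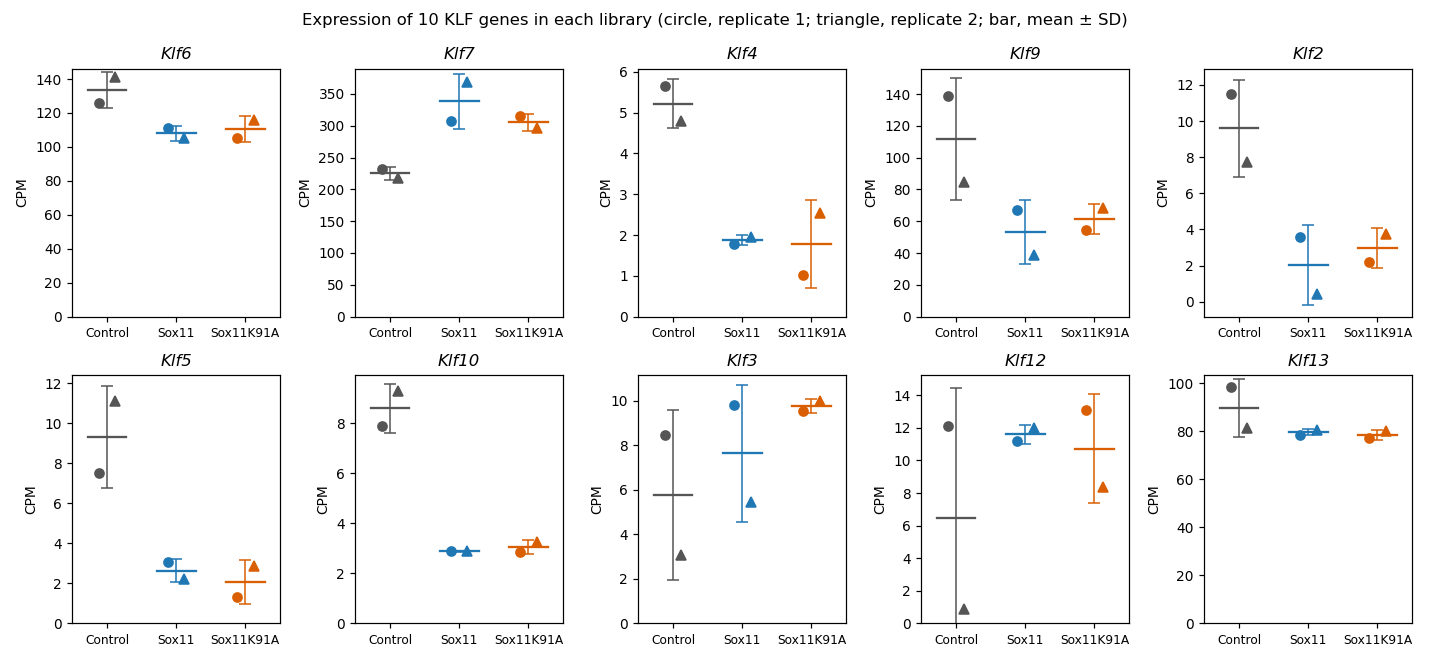
Expression of the 10 KLF genes in each library, in CPM on an axis of its own for each gene (circle, replicate 1; triangle, replicate 2; bar and whiskers, mean ± SD of 2 libraries). Klf7 was above both control libraries with either virus, Klf4, Klf9, Klf2, Klf5 and Klf10 were below them, and Klf12 was low in control replicate 2 alone.

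Klf7, a KLF that promotes axon growth and is needed for axon projection in several neuron types, was the only one of the 10 genes to pass the test as higher with Sox11. It was at 232 and 218 CPM in control, 308 and 369 CPM with Sox11, and 315 and 296 CPM with Sox11K91A. All 4 libraries with a Sox11 virus were above both control libraries. Klf7 rose by 0.58 on the log2 scale with Sox11 (SE 0.15, adjusted p = 0.0378), or 1.50-fold. With Sox11K91A it was 0.44 (SE 0.15, adjusted p = 0.10), which did not pass. The call with Sox11 was lost without control replicate 2 (adjusted p = 0.0688) and without Sox11 replicate 2 (adjusted p = 0.23), where the log2 fold change was 0.53 and 0.45. Klf7 lies at chr1:64029447-64122282 on the minus strand, in GRCm38, and overlaps Gm26649 and Gm13748 on the other strand and Mir6899. It was also the only one of the 10 genes for which RSEM gave the count an error from reads shared between genes, with a posterior SD of 42.9 to 67.3 counts on 6496 to 12229 counts.

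Klf6, the other growth-promoting member, was not called. It was at 126 and 141 CPM in control, 111 and 105 CPM with Sox11, and 105 and 116 CPM with Sox11K91A. Both control libraries were above all 4 others, by a small margin. Its log2 fold change was -0.30 (SE 0.14, adjusted p = 0.158) with Sox11 and -0.28 (SE 0.14, adjusted p = 0.223) with Sox11K91A, and neither was called in any of the 16 alternatives tried for each. The 95% confidence interval with Sox11 ran from -0.63 to 0.03. Klf6 lies at chr13:5861482-5870394 on the plus strand and overlaps no other annotated gene.

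Klf4, a growth-suppressing KLF that is also one of the factors used to reprogram cells to pluripotency, had the lowest mean TPM of the 10 genes. It was at 5.65 and 4.80 CPM in control, 1.78 and 1.96 CPM with Sox11, and 1.02 and 2.54 CPM with Sox11K91A, from 158 and 185, 49 and 65, and 33 and 74 counts. All 4 libraries with a Sox11 virus were below both control libraries. Klf4 fell by 1.45 on the log2 scale with Sox11 (SE 0.41, adjusted p = 0.0492), or 2.74-fold. The estimate was -1.69 with Sox11K91A (SE 0.42, adjusted p = 0.0502), which did not pass. With Sox11 the call was lost when any 1 library was left out, with log2 fold changes of -1.35, -1.59, -1.39 and -1.52 and adjusted p-values of 0.0891, 0.0799, 0.12 and 0.213 without control replicate 1, control replicate 2, Sox11 replicate 1 and Sox11 replicate 2. With Sox11K91A, the estimate was -1.02 without Sox11K91A replicate 1 (adjusted p = 0.446) and -2.32 without Sox11K91A replicate 2 (adjusted p = 0.0943). Klf4 lies at chr4:55527143-55532466 on the minus strand.

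Klf9, a growth-suppressing KLF that is induced by thyroid hormone and glucocorticoids, was at 139 and 84.7 CPM in control. It was at 67.3 and 39.0 CPM with Sox11 and at 54.6 and 68.2 CPM with Sox11K91A. Both control libraries were again above the other 4, and Sox11 replicate 2 was lowest. The replicates differed by 0.72 on the log2 scale in control and by 0.78 with Sox11. The log2 fold change was -1.09 with Sox11 (SE 0.32, adjusted p = 0.0547) and -0.83 with Sox11K91A (SE 0.32, adjusted p = 0.134), and neither passed. Klf9 passed with Sox11 without control replicate 2 (log2 fold change -1.46, adjusted p = 0.0491) and without Sox11 replicate 1 (log2 fold change -1.48, adjusted p = 0.035). Its log2 fold change was -0.74 without control replicate 1 (adjusted p = 0.141) and -0.70 without Sox11 replicate 2 (adjusted p = 0.284), and with Sox11K91A it was -0.47 without control replicate 1 (adjusted p = 0.326). Klf9 also passed in DESeq2 (adjusted p = 0.0101), and when the 2 libraries with low Xist were fitted as a block, in which the log2 fold change was -1.08 with Sox11 (adjusted p = 0.00809) and -1.21 with Sox11K91A (adjusted p = 0.0124). Klf9 lies at chr19:23141226-23168134 on the plus strand and holds Mir1192.

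**Figure D2:**
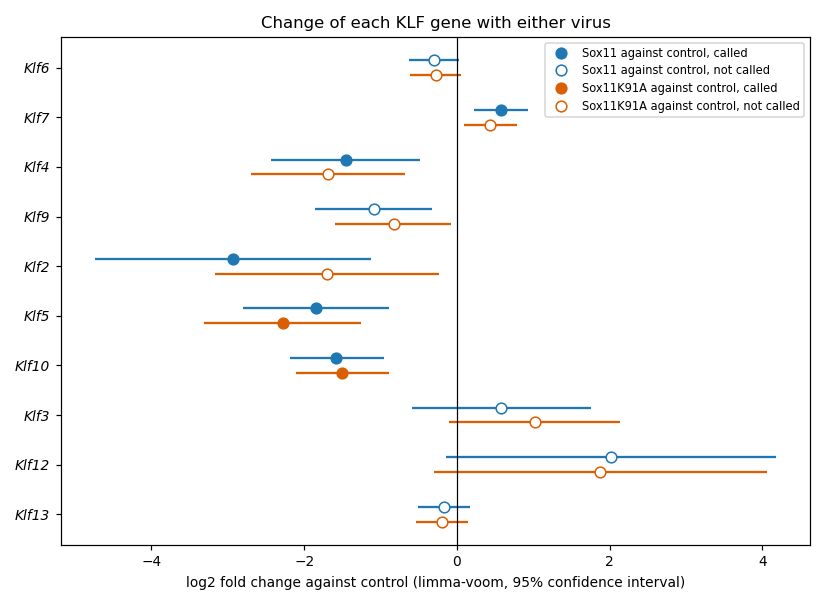
The log2 fold change of each KLF gene with Sox11 (blue) and Sox11K91A (orange) against the shared control libraries, from limma-voom, with 95% confidence intervals; filled circles passed the threshold. Klf7 lies above 0, and Klf4, Klf9, Klf2, Klf5 and Klf10 below it, with both viruses, and the intervals of Klf2 and Klf12 are widest.

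The balance between the genes of opposite role was described in each library as the mean log2(TPM + 0.1) of Klf6 and Klf7 minus that of Klf4 and Klf9. It was 1.76 and 2.26 in control, 3.18 and 3.31 with Sox11, and 3.46 and 2.88 with Sox11K91A. Every library with a Sox11 virus was above both control libraries. The group means were 2.01 ± 0.35, 3.25 ± 0.09 and 3.17 ± 0.42 (SD, n = 2), so that the difference from control was 1.24 with Sox11 and 1.16 with Sox11K91A. The difference of Sox11K91A from Sox11 was -0.08, less than the SD of either the control or the Sox11K91A group. No p-value is given for this score because the genes were chosen with results of these data known. The score and the ratios to Klf4 below also depend on the estimated length of Klf4, which enters TPM. It ran from 1950 to 2809 bases between libraries, on 33 to 185 counts. On the log2(TPM + 0.1) scale the log2 fold change of Klf4 was -1.12 with Sox11, against -1.45 from counts.

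The pairs behind the balance were also taken singly. The ratio of Klf7 to Klf9 in TPM was 0.747 and 1.22 in control, 2.03 and 3.94 with Sox11, and 2.67 and 1.92 with Sox11K91A. The growth-promoting gene was therefore the more abundant of this pair in 1 control library and in all 4 libraries with a Sox11 virus. The ratio of Klf6 to Klf4 in TPM was 15.7 and 19.3 in control, 43.7 and 26.4 with Sox11, and 50.2 and 29.5 with Sox11K91A. The ratio of Klf7 to Klf4 in TPM was 17.0 and 18.5 in control, 70.5 and 50.7 with Sox11, and 91.9 and 44.0 with Sox11K91A. The ratio of Klf6 to Klf9 was 0.69 and 1.27 in control, 1.26 and 2.05 with Sox11, and 1.46 and 1.29 with Sox11K91A. It overlapped between control and Sox11, since control replicate 2 was above Sox11 replicate 1. Both Sox11K91A libraries were above both control libraries. On the log2 scale, the difference from control was 1.57 with Sox11 and 1.24 with Sox11K91A for Klf7 minus Klf9, and 0.92 and 1.08 for Klf6 minus Klf4.

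**Figure D3:**
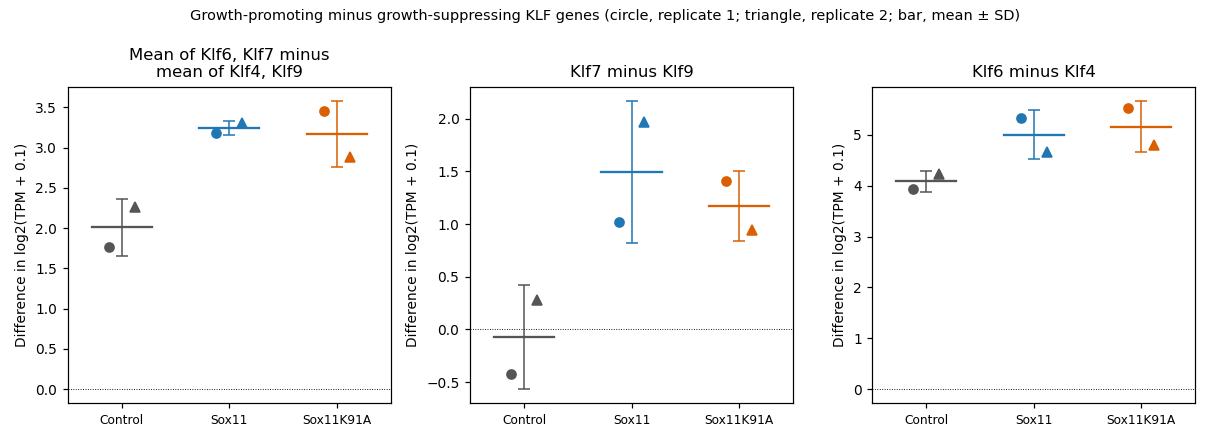
Difference in log2(TPM + 0.1) between growth-promoting and growth-suppressing KLF genes in each library, for all 4 genes and for the pairs Klf7 and Klf9, and Klf6 and Klf4 (circle, replicate 1; triangle, replicate 2; bar and whiskers, mean ± SD). In all 3 panels the libraries with a Sox11 virus lie above both control libraries, and the libraries of both viruses overlap.

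Klf2, Klf5 and Klf10 were the other members that fell with Sox11. Klf2 is best known as a KLF of blood vessel endothelium and of resting T cells. It was at 11.5 and 7.71 CPM in control, 3.60 and 0.452 CPM with Sox11, and 2.17 and 3.74 CPM with Sox11K91A. The groups did not overlap in either comparison, and Sox11 replicate 2 was far below the other libraries. Klf2 fell by 2.93 on the log2 scale with Sox11 (SE 0.77, adjusted p = 0.0396). The estimate with Sox11K91A was -1.70 (SE 0.62, adjusted p = 0.121). Without Sox11 replicate 2, the log2 fold change with Sox11 was -1.35 (adjusted p = 0.189), and the call was also lost without control replicate 1 (adjusted p = 0.0744) and without control replicate 2 (adjusted p = 0.0616). The edgeR quasi-likelihood test did not call it (adjusted p = 0.0999).

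Klf5, a KLF of dividing epithelial and smooth muscle cells, was at 7.51 and 11.1 CPM in control, 3.06 and 2.23 CPM with Sox11, and 1.30 and 2.85 CPM with Sox11K91A. All 4 libraries with a Sox11 virus were below both control libraries. Klf5 fell by 1.84 on the log2 scale with Sox11 (SE 0.40, adjusted p = 0.0261), or 3.58-fold, and by 2.28 with Sox11K91A (SE 0.43, adjusted p = 0.0276), or 4.87-fold. With Sox11 the call was lost without control replicate 2 (adjusted p = 0.069), Sox11 replicate 1 (adjusted p = 0.0509) or Sox11 replicate 2 (adjusted p = 0.172). With Sox11K91A it was lost without control replicate 2 (adjusted p = 0.0707), Sox11K91A replicate 1 (adjusted p = 0.277) or Sox11K91A replicate 2 (adjusted p = 0.0719).

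Klf10, first found as a gene induced by TGF-beta, is also a Sin3a-binding KLF. It was at 7.91 and 9.29 CPM in control, 2.88 and 2.90 CPM with Sox11, and 2.85 and 3.26 CPM with Sox11K91A. The control libraries were far above the others, which lay within a narrow range. Klf10 fell by 1.58 with Sox11 (SE 0.26, adjusted p = 0.0146), or 2.98-fold, and by 1.50 with Sox11K91A (SE 0.26, adjusted p = 0.0233), or 2.83-fold. With Sox11 it was called in 15 of the 16 alternatives, the exception being without Sox11 replicate 2, where the log2 fold change was -1.58. With Sox11K91A it was called in 12 of the 16. The call was lost in limma-trend on log2(TPM + 0.1) (adjusted p = 0.0519), without control replicate 2 and without either Sox11K91A library. With 1 library left out, the log2 fold change with Sox11K91A ran from -1.6 to -1.38. Klf5 lies at chr14:99298691-99315036 on the plus strand, Klf10 at chr15:38291463-38300706 on the minus strand and Klf2 at chr8:72319033-72321656 on the plus strand.

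Since Klf2 and Klf4 are also expressed in endothelium, the levels of 8 endothelial markers were set beside these falls. Their sum was 15.9 and 16.3 CPM in control, 12.2 and 7.42 with Sox11, and 13.9 and 13.1 CPM with Sox11K91A. Of these markers 4 stayed under 1 CPM in every library, and 6 were tested. Egfl7, at 9.41 and 11.9 CPM, made up most of the sum in control, and it fell by 3.10 on the log2 scale with Sox11 (adjusted p = 0.0179) and by 2.08 with Sox11K91A (adjusted p = 0.0409). Kdr, which was not called, had log2 fold changes of 0.49 with Sox11 and 1.02 with Sox11K91A. It was at 4.22 and 3.14 CPM in control, 7.02 and 3.74 CPM with Sox11, and 8.13 and 6.52 CPM with Sox11K91A. Flt1 and Vwf, under 1 CPM in every library, had negative estimates with both viruses and were not called. Pecam1 and Tek went the other way from Egfl7, from low levels. Pecam1 was at 0.501 and 0.389 CPM in control, 1.46 and 1.57 CPM with Sox11, where its log2 fold change was 1.76 (adjusted p = 0.0504), and 2.23 and 1.47 CPM with Sox11K91A, where it rose by 2.03 (adjusted p = 0.0468). Tek had a log2 fold change of 2.18 with Sox11 (adjusted p = 0.0602) and rose by 3.14 with Sox11K91A (adjusted p = 0.0305). The part of endothelial cells in the fall of Klf2 and Klf4 was not tested.

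Markers of other cell types differed widely in level. The 8 microglia and macrophage markers summed to between 0.362 and 2.10 CPM, with Tyrobp at 0, and the 6 photoreceptor markers to between 0.446 and 2.26 CPM, with Rcvrn at 0. The 7 fibroblast and pericyte markers summed to 10.3 to 24.1 CPM, the 6 cycling and progenitor markers to 9.60 to 19.3 CPM, mostly from Sox2 and Ccnd1, and the 6 oligodendrocyte lineage markers to 29.7 to 49.6 CPM, with Olig2 at 0. The 6 astrocyte and Müller glia markers summed to 108 and 103 CPM in control and 269 to 313 CPM with either virus. Nearly all of it came from Glul, while Gfap was at 0. Of the others tested, Rlbp1 had log2 fold changes of -2.51 with Sox11 and -2.7 with Sox11K91A, and Slc1a3 of -2.13 and -1.1. Aldh1l1 went the other way, at 0.88 and 1.0, and none of these was called. Amacrine markers were present, with Gad2 at 140 and 71.5 CPM in control. Their sum over 5 genes was highest in control replicate 1 at 221 CPM, against 93.5 CPM in control replicate 2. It was lowest in Sox11 replicate 2 at 31.7 CPM. Klf9 was highest and lowest in the same libraries. Gad2 made up the largest part of the sum, and the members did not move together. Slc6a9 fell with both viruses, whereas Tfap2a had log2 fold changes of 2.06 and 2.62, neither called. The median over the 5 genes was -0.59 with Sox11 and 1.06 with Sox11K91A. Of the 12 RGC markers, Nefl, Slc17a6, Thy1 and Nrn1 fell with Sox11, where 10.2% of all genes were called lower, and Slc17a6 and Nrn1 with Sox11K91A, where 4.81% were. The part of the makeup of the cultures in the KLF changes was not tested.

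Klf3, Klf12 and Klf13 were not called. Klf12, a repressor that binds CtBP, was at 12.1 and 0.882 CPM in control, from 338 and 34 counts, at 11.2 and 12 CPM with Sox11, and at 13.1 and 8.37 CPM with Sox11K91A. Control replicate 2 alone was low, so the groups overlapped. That library decided the log2 fold change of 2.02 with Sox11 (SE 0.91, adjusted p = 0.152), since it became -0.06 without control replicate 2 (adjusted p = 0.90) and 3.70 without control replicate 1 (adjusted p = 0.0223). With Sox11K91A it went from 1.88 (SE 0.92, adjusted p = 0.218) to -0.20 without control replicate 2.

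Klf3, a CtBP-binding repressor like Klf12, showed the same low value in control replicate 2. It was at 8.44 and 3.06 CPM in control, 9.79 and 5.46 CPM with Sox11, and 9.53 and 9.98 CPM with Sox11K91A. Both low libraries were those with low Xist. The log2 fold change with Sox11 was 0.58 (SE 0.49, adjusted p = 0.432) and turned to -0.24 without control replicate 2. With Sox11K91A it was 1.02 (SE 0.47, adjusted p = 0.198), with both libraries above both control libraries, and it was 0.20 without control replicate 2 (adjusted p = 0.748) and 1.67 without control replicate 1 (adjusted p = 0.0624). Klf3 lies at chr5:64803388-64832901 on the plus strand and overlaps C230096K16Rik and Gm20033, and Klf12 lies at chr14:99870632-100284679 on the minus strand and overlaps 4930517O19Rik and Gm16260.

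Klf13, a close relative of Klf9 in sequence, was not called in either comparison. It was at 98.5 and 81.4 CPM in control, 78.7 and 80.6 CPM with Sox11, and 77.2 and 80.0 CPM with Sox11K91A. Its log2 fold change was -0.17 with Sox11 (SE 0.14, adjusted p = 0.427), which turned to 0.15 on the TPM scale, and -0.19 with Sox11K91A (SE 0.14, adjusted p = 0.426). The 95% confidence intervals ran from -0.51 to 0.17 and from -0.53 to 0.15. The estimated length of Klf13 differed between libraries, from 4068 to 6146 bases, which enters TPM but not CPM. Klf13 lies at chr7:63886351-63938915 on the minus strand and overlaps Gm27252 and E030018B13Rik.

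**Figure D4:**
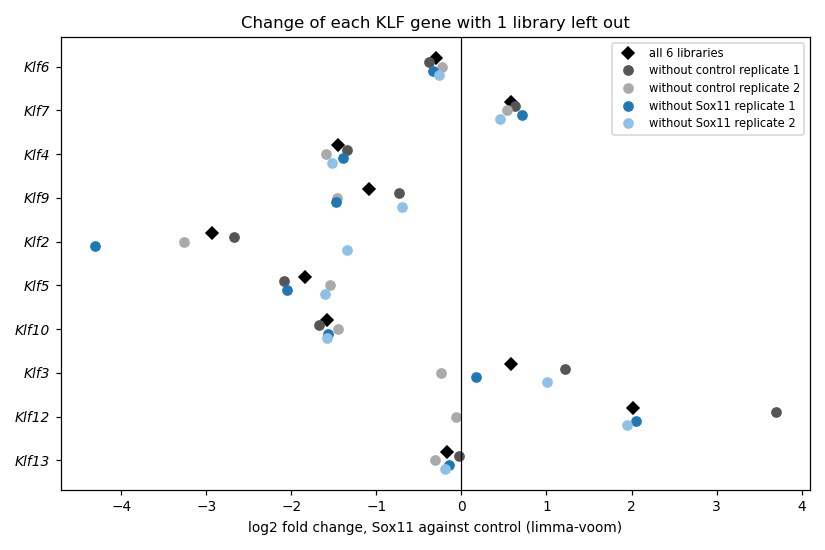
The log2 fold change of each KLF gene with Sox11 against control in all 6 libraries (diamond) and with 1 control or Sox11 library left out (circles). Klf3 and Klf12 cross 0 without control replicate 2, and Klf2 moves most with the Sox11 library that is left out.

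The second question was how the genes changed with the SUMOylation mutant. With Sox11K91A against control, Klf5 and Klf10 fell, and none of the 10 genes rose past the threshold. Of all genes tested, 5.81% were called higher and 4.81% lower. Without overlap of the libraries, 2 genes, Klf3 and Klf7, were higher and 7 were lower, against 31.2% and 30.7% of all genes. The median log2 fold change was -0.56 over the 10 genes and 0.02 over all genes, and the median absolute log2 fold change was 1.26 and 0.39, respectively. The 2 calls became 3 without control replicate 1 and 0 without any of the other 3 libraries. No gene at all was called without control replicate 2 or without Sox11K91A replicate 1, and 161 genes were called without Sox11K91A replicate 2, so that the calls of the other gene groups with Sox11K91A also rest on these libraries. When the 2 libraries with low Xist were fitted as a block, 5 of the 10 genes were called lower, with Klf2, Klf4 and Klf9 beside Klf5 and Klf10. That block held no Sox11K91A library, so in this comparison it was partly confounded with group. The block raised the calls over all genes as well, to 8.42% higher and 9.96% lower.

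The third question was whether the mutant differed from Sox11. None of the 10 genes was called between Sox11K91A and Sox11 in limma-voom, in the edgeR quasi-likelihood test or in DESeq2, and 0 of them had an unadjusted p under 0.05. The libraries of both groups overlapped for all 10 genes, whereas 13.3% of all genes were higher and 13.4% lower without overlap. Of all genes, 0.0% were called in either direction in limma-voom, with 108 genes at an unadjusted p under 0.05, 0 called by edgeR and 2 by DESeq2. The difference was best bounded for Klf6, Klf13 and Klf7. It was 0.02 for Klf6 (95% confidence interval -0.30 to 0.35), -0.02 for Klf13 (-0.36 to 0.32) and -0.14 for Klf7 (-0.50 to 0.21). The interval was wider for Klf9, at 0.26 (-0.51 to 1.03), and for Klf10, at 0.08 (-0.64 to 0.79). A level 2-fold higher with the mutant lay inside the interval of Klf9. The signs for Klf6, Klf13 and Klf9 turned when 1 library was left out. For the genes of low level the intervals were wide, as in Klf4 at -0.24 (-1.40 to 0.92), Klf5 at -0.44 (-1.64 to 0.75) and Klf2 at 1.23 (-0.81 to 3.27), and a level 2-fold lower with the mutant lay inside the intervals of Klf4 and Klf5.

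The counts of the gene groups that follow stand against the shares of all genes called, 9.96% higher and 10.2% lower with Sox11 and 5.81% higher and 4.81% lower with Sox11K91A. The relatives of the 10 genes were looked at next, as the other KLF genes and the SP genes, which bind the same GC-rich sites. Of 16 such genes 10 were tested, and Sp4 rose while Klf15 and Klf16 fell with Sox11. Klf16 was at 23.6 and 20.1 CPM in control, 7.57 and 4.34 CPM with Sox11, and 5.62 and 8.64 CPM with Sox11K91A, and it fell by 1.94 (SE 0.31, adjusted p = 0.014) and by 1.64 (SE 0.30, adjusted p = 0.0255). Klf16 belongs to the same subgroup as Klf9, Klf10 and Klf13, whose members bind the corepressor Sin3a. Klf11, another KLF gene of this list, went the other way and was not called. Its log2 fold change was 0.79 with Sox11 (SE 0.23, adjusted p = 0.0504) and 0.57 with Sox11K91A (SE 0.23, adjusted p = 0.145). Klf15, a glucocorticoid-induced KLF of metabolism, fell by 1.72 with Sox11 (SE 0.46, adjusted p = 0.042) from 2.83 and 1.89 CPM, to 0.692 and 0.664 CPM. Sp4, a neuronal SP factor, rose by 0.95 with Sox11 (SE 0.21, adjusted p = 0.0258). With Sox11K91A, Klf16 was the only one called, while the estimate was 0.69 for Sp4 (adjusted p = 0.0796) and -0.73 for Klf15 (adjusted p = 0.254). The median log2 fold change of the 10 tested was 0.60 with Sox11 and 0.27 with Sox11K91A, of opposite sign to the KLF genes above.

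Among 13 cofactors of KLF proteins, 3 rose and none fell with either virus. Sap30, a subunit of the Sin3 corepressor complex, was at 8.09 and 10.4 CPM in control, 23.1 and 27.9 CPM with Sox11, and 28.5 and 23.8 CPM with Sox11K91A. It rose by 1.45 (SE 0.22, adjusted p = 0.0131) and by 1.49 (SE 0.22, adjusted p = 0.0196). Hdac2, a histone deacetylase of the same complex, rose by 1.12 (adjusted p = 0.0167) and by 0.95 (adjusted p = 0.0328). Ctbp2, a CtBP corepressor of the kind that Klf3 and Klf12 bind, rose by 1.06 (adjusted p = 0.0199) and by 0.97 (adjusted p = 0.0338). All 3 were higher in each of the 4 libraries with a Sox11 virus than in control. Ctbp1 was far more abundant than Ctbp2, at 265 and 280 CPM in control. Its log2 fold changes were -0.22 with Sox11 and -0.13 with Sox11K91A. Those of Hdac1 were -0.4 and -0.23, and neither gene was called. The median log2 fold change over the 13 genes was 0.31 with Sox11 and 0.20 with Sox11K91A.

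Of 14 hormone receptors and hormone response genes, tied to Klf9 through thyroid hormone and glucocorticoids, 13 were tested. Thrb, Nr3c1, Nr3c2 and Zbtb16 fell and Sgk1 rose with Sox11, and Thrb and Nr3c1 fell and Sgk1 rose with Sox11K91A. Thrb, the thyroid hormone receptor beta, was at 13.0 and 14.8 CPM in control, 3.49 and 1.66 CPM with Sox11, and 1.80 and 3.09 CPM with Sox11K91A. It fell by 2.56 (SE 0.38, adjusted p = 0.0128) and by 2.57 (SE 0.38, adjusted p = 0.0193). Nr3c1, the glucocorticoid receptor, was at 6.01 and 5.84 CPM in control and between 0.271 and 1.46 CPM in the other 4 libraries, and it fell by 3.26 (SE 0.65, adjusted p = 0.0213) with Sox11 and by 2.56 (SE 0.57, adjusted p = 0.0389) with Sox11K91A. Sgk1, a kinase gene that glucocorticoids induce, moved in the opposite direction to that receptor, from 9.52 and 14.7 CPM in control to 34.2 and 57.2 CPM with Sox11 and 43.2 and 31.8 CPM with Sox11K91A, a rise of 1.88 (adjusted p = 0.0179) and 1.62 (adjusted p = 0.0357). Thra, the thyroid hormone receptor alpha, was far more abundant than Thrb, at 527 and 538 CPM in control. It was not called, with log2 fold changes of -0.27 with Sox11 and -0.17 with Sox11K91A. Fkbp5 (0.15 and 0.14) and Tsc22d3 (0.01 and 0.06), of the same list, were not called either. The median log2 fold change over the 13 genes was -0.25 with Sox11 and -0.17 with Sox11K91A.

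Of 11 genes linked to KLFs in neurons, such as growth cone, neurotrophin receptor and JAK-STAT genes, Mapk8 rose and Dusp14 and Socs3 fell with Sox11. Dusp14, a phosphatase tied to Klf9, was at 10.3 and 17.8 CPM in control, 1.38 and 1.27 CPM with Sox11, and 1.33 and 2.19 CPM with Sox11K91A. It fell by 3.38 (SE 0.50, adjusted p = 0.0127) and by 3.02 (SE 0.46, adjusted p = 0.0199). Socs3, an inhibitor of the Stat3 pathway that Klf4 also limits, was at 64.2 and 53.1 CPM in control, 32.5 and 15.1 CPM with Sox11, and 20.4 and 39.8 CPM with Sox11K91A. Socs3 fell by 1.43 with Sox11 (SE 0.41, adjusted p = 0.0499), and its estimate with Sox11K91A was -1.04 (SE 0.39, adjusted p = 0.128). Mapk8, the kinase JNK1, rose by 0.82 (SE 0.13, adjusted p = 0.0146) with Sox11 and by 0.71 (SE 0.13, adjusted p = 0.0277) with Sox11K91A. The median over the 11 genes was near 0, at -0.01 and 0.03.

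**Figure D5:**
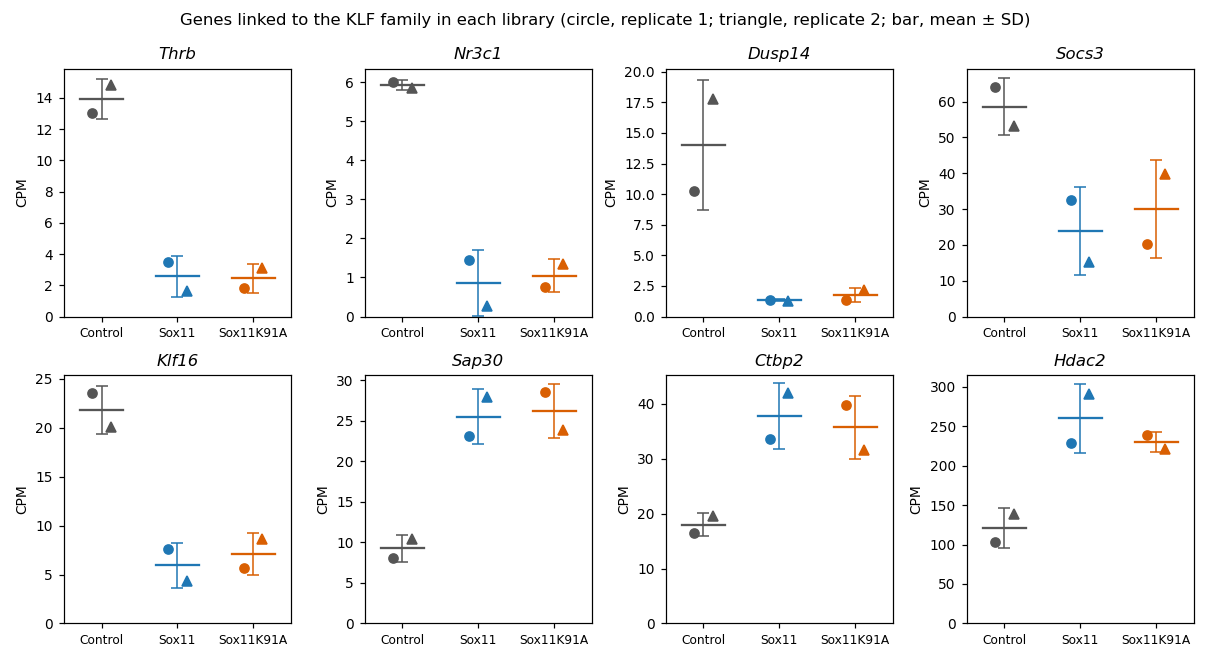
Expression in CPM of 8 genes tied to the KLF family in each library (circle, replicate 1; triangle, replicate 2; bar and whiskers, mean ± SD). Thrb, Nr3c1, Dusp14, Socs3 and Klf16 were below both control libraries with either virus, and Sap30, Ctbp2 and Hdac2 were above them.

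Of 13 other transcription factors with a known role in axon growth, 4 rose and 4 fell with Sox11, and 1 rose and 2 fell with Sox11K91A. Atf3, an injury-response factor that promotes regeneration, was at 30.0 and 38.6 CPM in control, 4.99 and 4.74 CPM with Sox11, and 3.13 and 6.89 CPM with Sox11K91A. It fell by 2.81 (SE 0.34, adjusted p = 0.0113) and by 2.89 (SE 0.35, adjusted p = 0.014). Jun, its partner in the injury response, fell by 0.96 (adjusted p = 0.0309) and by 1.05 (adjusted p = 0.0357). Rest, a repressor of neuronal genes, rose by 1.73 with Sox11 (SE 0.29, adjusted p = 0.0149), Creb1 by 0.87 (adjusted p = 0.028) and Smad1 by 0.70 (adjusted p = 0.0346), while Myc fell by 1.65 (adjusted p = 0.0405). With Sox11K91A the estimates had the same signs but did not pass. They were 0.9 for Rest (adjusted p = 0.103), 0.65 for Creb1 (0.0758), 0.52 for Smad1 (0.0935) and -1.18 for Myc (0.105). The median log2 fold change over the 13 genes was 0.34 with Sox11 and -0.12 with Sox11K91A. None of the genes in these 5 groups was called between Sox11K91A and Sox11.

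The genes whose pattern was most like each of the 4 growth KLF genes were found among 10980 genes with a mean of at least 5 CPM, as the smallest root mean square difference in log2 CPM over the 6 libraries after each gene was centred on its own mean. For Klf7 these were Rfesd at 0.0252, Plxnc1 at 0.0296 and Ap3b1 at 0.0308. For Klf6 they were Wdr77 at 0.0275, Snx8 at 0.0292 and B3gat3 at 0.0314. For Klf9 they were Herc3 at 0.0638, Ogdh at 0.068 and Slc2a3 at 0.0719, and for Klf4 they were Lingo3 at 0.226, Col6a1 at 0.239 and Ttc39a at 0.254. The 6 libraries share their groups, so closeness describes these libraries only.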

How the data were processed

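Per the paper and labels, the authors used STAR on mm10 and then RSEM for counting, and they deposited 1 table per library, with expected counts that were not normalized and TPM values that RSEM scaled by gene length and total. The authors also deposited the estimated length of each gene and the posterior SD of its count. Tool versions, annotation and the use of strand in counting are not given in the sources used here, so reads of genes that overlap on opposite strands cannot be told apart. GENCODE M21 named 98.0% of the Ensembl genes, and coordinates are from it, on GRCm38. The 10 genes, the other gene lists and the tests were chosen with earlier results of these data known.

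Expected counts were rounded, filtered with filterByExpr of edgeR 4.0.16 (15747 genes kept), scaled with TMM factors and fitted with limma-voom (limma 3.58.1, R 4.3.3), all 6 libraries in a single fit. Tests were two-sided, and Benjamini-Hochberg adjustment ran over every tested gene, at FDR under 0.05 and fold change above 1.2. The code was tested on simulated data. CPM uses TMM-scaled totals. All 10 genes were named in every comparison, and of each other list at most 6 genes that passed in at least 1 comparison, by size of the change with Sox11. Some genes that did not pass are named as well, to show the rest of a list. DESeq2 1.42.0 was an alternative. Tables and plots used Python 3.11.15, pandas 2.3.3 and matplotlib 3.10.9.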

Additional observations from a re-analysis of the deposited data

How the results depend on the processing

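With Sox11 against control, 3171 genes and 5 KLF genes were called. These became 4332 and 6 with DESeq2, 4562 and 6 with the block of libraries with low Xist, 2838 and 3 with edgeR's quasi-likelihood test, 979 and 1 with sample quality weights, 2244 and 3 with limma-trend on log2(TPM + 1), 2107 and 2 on log2(TPM + 0.1), and 1637 and 2 with only the groups compared. Leaving out 1 library gave 0 to 3742 genes and 0 to 4 KLF genes. With Sox11K91A against control, 1672 genes and 2 KLF genes were called. DESeq2 called 3144 genes, the log2(TPM + 1) scale 936, and the log2(TPM + 0.1) scale 896 genes and 1 KLF gene. The low-Xist block, chosen after seeing the data, gave 2894 genes and 5 KLF genes, and leaving out 1 library gave 0 to 2529 genes and 0 to 3 KLF genes. Between Sox11K91A and Sox11, DESeq2 called 2 genes and every other alternative 0. Of the genes called with Sox11, 49.4% were higher, against 58.5% and 61.1% with 1 or 0.1 added to TPM. The cause of these differences was not tested.

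In the alternatives, the direction of Klf4, Klf6, Klf7 and Klf9 did not turn in either comparison against control. With Sox11, Klf13 turned to 0.15 on both TPM scales, and without control replicate 2, Klf3 turned to -0.24 and Klf12 to -0.06 (-0.20 with Sox11K91A). With 1 library left out these genes reached at most 1.22 and 3.70 (3.57 with Sox11K91A). Between Sox11K91A and Sox11, Klf6 turned to -0.02 on both TPM scales and Klf3 and Klf9 to -0.12 with the low-Xist block. Leaving out 1 library there gave -0.05 to 0.09 for Klf6, -0.01 to 0.83 for Klf3, -0.14 to 0.65 for Klf9, -0.35 to 2.60 for Klf2, -0.87 to 0.43 for Klf4, -0.99 to 0.14 for Klf5, -0.02 to 0.17 for Klf10, -0.48 to 0.17 for Klf12 and -0.05 to 0.01 for Klf13. The balance of KLF genes between these groups turned from -0.08 to 0.16 with only Klf6 and Klf4, and ranged from -0.37 to 0.22 with 1 library left out.

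Libraries of the same replicate number did not deviate together throughout, since the deviations of Sox11 libraries correlated with control at 0.231 and with Sox11K91A at -0.232, and those of control with Sox11K91A at -0.033, and the numbers were not used to pair them. A replicate block gave 2679, 1402 and 0 called genes in the 3 comparisons and 4, 2 and 0 KLF genes, with Klf4 (adjusted p = 0.0716) and Klf7 (adjusted p = 0.0612) no longer called and Klf9 called (adjusted p = 0.0398) with Sox11. With the Sox11K91A numbers exchanged, the block called 0 genes between Sox11K91A and Sox11. Depth limits the genes of low level, since Klf2 held 15 to 322 counts per library and Klf4 33 to 185.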
